A study of Homo sapiens with 6 samples.

Results

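The transcriptome described here is that of HCT116 MCM2-mAID cells that received DMSO, the solvent in which auxin is dissolved, and were sorted in G1 phase. It was measured in 3 libraries, DMSO 1, DMSO 2 and DMSO 3, chosen by their treatment label from the 6 libraries of the series, and the 3 auxin libraries were not analysed here. HCT116 is an established human colorectal carcinoma line. In the derivative used here both MCM2 alleles carried a C-terminal mini auxin-inducible degron (mAID) with a neomycin resistance marker, and the plant F-box protein AtAFB2, through which auxin sends tagged proteins to the proteasome, was expressed from a CMV promoter. The line was a single clone. Per the study's methods, cells were synchronised by double-thymidine arrest and release, stained with Hoechst and sorted from the left part of the G1 peak. The levels below therefore belong to a tagged, synchronised and sorted clone, and no untagged or unsorted HCT116 library was analysed here. The study describes its RNA-seq replicates as independent without saying whether each came from a culture of its own.

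G1 is the interval between mitosis and DNA synthesis. Cells in G1 make most of the mRNAs for growth and metabolism, load MCM2-7 helicases onto replication origins and, through D-type cyclins and the retinoblastoma protein, decide whether to enter S phase. mRNAs for mitotic proteins are known to peak in G2 and to decline after division, and mRNAs of replication-dependent histones accumulate in S phase and end in a stem-loop in place of a poly(A) tail. HCT116 is known as an epithelial line with a mutated CTNNB1 gene.

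Estimated counts summed to 6.84e+07 in DMSO 1, 5.25e+07 in DMSO 2 and 6.37e+07 in DMSO 3. Levels are given in TPM, a relative transcript abundance, that is, estimated counts divided by effective transcript length and scaled to a fixed total over all listed transcripts, then summed per gene. TPM is a level per length and can be compared between genes. Values written with ± are the mean and standard deviation (SD) over the 3 libraries (n = 3), and no statistical test was made because a single group is described. In RNA pooled from many cells, fewer cells that express a gene and less RNA per cell cannot be told apart. In every library 12102 of 36415 listed genes reached 1 TPM, and 11538 of these were protein-coding, which is 57.8% of the 19965 protein-coding genes listed. At higher thresholds, 7383 genes reached 10 TPM, 1390 reached 100 TPM and 136 reached 1000 TPM in every library. Per library, between 12446 and 12497 genes reached 1 TPM. The median over all listed protein-coding genes was 3.47 TPM, and over those at 1 TPM or more in every library it was 17.96 TPM.

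The output was concentrated in few genes. The 10 most abundant genes held 14.9%, 15.1% and 13.9% of the gene TPM in DMSO 1, 2 and 3, the 100 most abundant held 37.8%, 38.9% and 37.6%, and the 1000 most abundant held 69.4%, 70.2% and 69.9%. On the mean levels, 229 genes held 50% of the output, and 422 did so when only nuclear genes were counted. Of the 30 most abundant genes, 13 were mitochondrially encoded and 11 encoded ribosomal proteins. The other 6 were EEF1A1, ACTG1, TMSB10, PPIA, TPT1 and GAPDH.

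**Figure D1:**
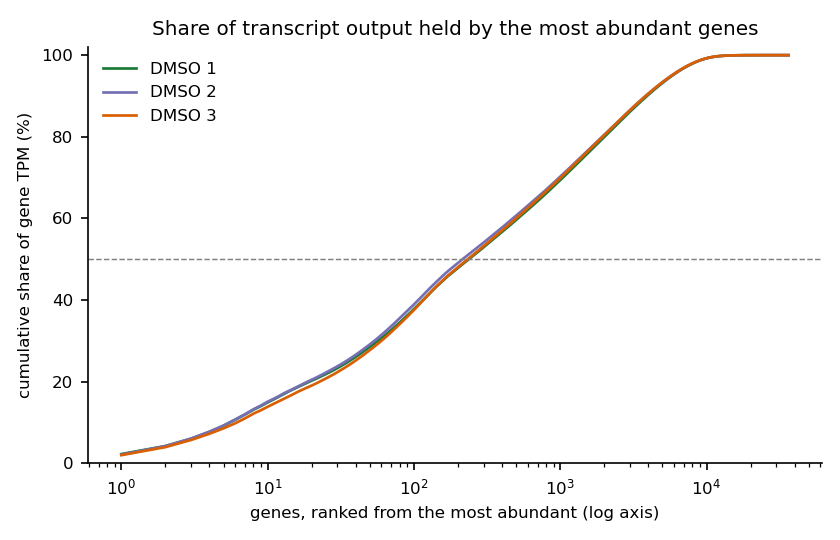
Cumulative share of gene TPM (vertical axis, percent) against the number of genes counted from the most abundant down (horizontal axis, log scale), with a line for each DMSO library and a dashed line at 50%. The 3 lines nearly coincide and cross 50% at 238, 215 and 234 genes in DMSO 1, 2 and 3.

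Mitochondrial DNA encodes 13 subunits of the respiratory chain and ATP synthase, and all 13 genes were among the 30 most abundant. Together they made up 16.2%, 16.3% and 14.9% of TPM in DMSO 1, 2 and 3 (15.8 ± 0.776%). MT-ATP8, a subunit of ATP synthase, stood highest by TPM with 22027, 20759 and 19359 TPM. Its transcript is 207 bases long and its effective length in DMSO 1 was 63.7 bases, so its level rests strongly on the length correction. MT-ATP8 (positions 8366 to 8572) overlaps MT-ATP6 (8527 to 9207, 15615 ± 838 TPM), so their levels need not be those of separate mRNAs. The cytochrome c oxidase subunits MT-CO2 and MT-CO3 followed with 19309 ± 616 and 17372 ± 482 TPM. MT-ND5, a complex I subunit, was the lowest of the 13 with 4354, 4295 and 3496 TPM, 5.12-fold below MT-ATP8. The overlapping pair MT-ND4L and MT-ND4 had nearly the same level, 13656 ± 1571 and 13641 ± 718 TPM. MT-ND6, a complex I subunit that is transcribed from the other strand than the rest, had 7163, 6720 and 6282 TPM. DMSO 3 was the lowest of the libraries in the summed level, and none of the 13 genes was highest in it. Of all protein-coding genes at a mean of 1 TPM or more, 30.9% were highest in DMSO 3.

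Nuclear genes for respiratory chain subunits were present at lower levels. All 37 NADH dehydrogenase genes (NDUF symbols) reached 1 TPM in every library, with a median of 136 TPM and NDUFB9 highest at 791 ± 76.4 TPM. Of 78 mitochondrial ribosomal protein genes, 77 did so, with a median of 96.9 TPM and MRPL51 highest at 353 ± 13.6 TPM. The voltage-dependent anion channels of the outer membrane were ordered VDAC2 (367 ± 9.25 TPM), VDAC1 (243 ± 16.7 TPM) and VDAC3 (156 ± 3.298 TPM), with no overlap between neighbours over the libraries.

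The 79 listed cytosolic ribosomal protein genes all exceeded 100 TPM and made up 15.0%, 16.2% and 16.02% of TPM in DMSO 1, 2 and 3 (15.8 ± 0.643%). Their median was 1896 TPM. RPL41, which encodes the smallest ribosomal protein, was highest with 4764, 5069 and 5124 TPM. RPS18 followed with 3991, 4532 and 4247 TPM. RPS2 had 3707, 3671 and 3914 TPM. RPS18 was highest in DMSO 2, and RPL41 and RPS2 were highest in DMSO 3. The mRNA levels of the list spanned 24.1-fold, down to RPS9 with 181, 169 and 270 TPM. RPS9 also varied most of all ribosomal protein genes between libraries (CV 26.8%), against a median CV of 4.78% for the list. Whether transcripts outside the gene annotation hold reads of RPS9 was not tested. The next lowest were RPL22 (589, 602 and 610 TPM) and RPS26 (637, 697 and 694 TPM). None of the 79 genes was highest in DMSO 1, whereas 45 were highest in DMSO 2 and 34 in DMSO 3. Over all protein-coding genes at a mean of 1 TPM or more these shares were 44.3%, 24.8% and 30.9%. In DMSO 1, long transcripts read higher and short transcripts lower than in the other libraries. After removal of each library's trend with length the counts were 5, 45 and 29. The shares over all protein-coding genes were then 32.7%, 33.9% and 33.4%.

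The translation factors contained the most abundant nuclear mRNA, EEF1A1, the elongation factor that brings aminoacyl-tRNA to the ribosome, with 6968, 6729 and 6957 TPM. TPT1, a translationally controlled calcium-binding protein, had 2949 ± 173 TPM, the gamma subunit EEF1G 1527 ± 92.03 TPM and the poly(A)-binding protein PABPC1 1481 ± 90.3 TPM. All 29 genes of the list reached 1 TPM in every library, and EIF3A was the lowest (68.1, 49.9 and 65.9 TPM). The cap-binding protein EIF4E had 135 ± 2.50 TPM, well below its partner helicase EIF4A1 (1101 ± 19.0 TPM) and scaffold EIF4G1 (357 ± 31.1 TPM). EEF1A2, a paralog of EEF1A1 known for its expression in muscle and neurons, had 478, 433 and 491 TPM, which was 6.36% of the EEF1A output.

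mRNAs of ribosomal proteins and translation factors are known to begin with a C and a run of pyrimidines, the 5′ terminal oligopyrimidine (TOP) motif, through which mTOR signalling and LARP1 control their translation. The starts of the leading isoforms were therefore read from the GENCODE 44 transcripts (hg38). Shown are the first 25 bases for 5 abundant ribosomal protein mRNAs that begin with the motif, with the pyrimidine run in capitals.
RPS18-230: CTCTCTTCCacaggaggcctacacg
RPS2-201: CTTCTTTTCCgacaaaacaccaaat
RPLP0-203: CCTTCTCTCgccaggcgtcctcgtg
RPS12-201: CTCTTTCCCTgccgccgccgagtcg
RPS19-201: CTTTCCCCTggctggcagcgcggag
Their runs were 9 or 10 bases long. These start sites lie at position 33272075 of chromosome 6 (plus strand), 1964826 of chromosome 16 (minus), 120201111 of chromosome 12 (minus), 132814569 of chromosome 6 (plus) and 41860257 of chromosome 19 (plus), in the order shown.

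Other mRNAs of the same abundance began differently. Shown are 3 of the 30 most abundant genes whose leading isoform lacks the motif, all in lower case.
ACTG1-205: ctcagtcgccgctgccagctctcgc
TMSB10-201: gtttcttgctgcagcaacgcgagtg
GAPDH-201: gctctctgctcctcctgttcgacag
ACTG1 begins with pyrimidines but has a purine among its first 5 bases, and TMSB10 and GAPDH begin with a purine. With the motif defined as a C at base 1 followed by at least 4 bases that are each C or T on the transcribed strand, 38 of the 100 most abundant genes carried it, 45 of the 100 most abundant nuclear coding genes, and 521 of 11525 nuclear coding genes at 1 TPM or more in every library (4.52%). Of those 100 nuclear coding genes 64 encoded ribosomal proteins, and of the 36 others 6 carried the motif (16.7%). The motif share was 8.22% among the nuclear coding genes that followed the first 100 down to rank 1000 and 3.82% among those ranked lower. Of the 79 ribosomal protein genes 44 carried it (55.7%), and of 29 translation factors 10 did (34.5%), against 1 of 16 glycolysis genes and 1 of 31 proteasome genes. A match says only that these letters open the annotated transcript.

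The assigned isoform decides which start is read. EEF1A1 is an example, because most of its output was assigned to an isoform that starts downstream of the MANE Select isoform, the reference isoform agreed between annotation groups.
EEF1A1-219: atgcgatggagtttccccacactga
EEF1A1-201: CTTTTTCgcaacgggtttgccgcca
EEF1A1-219 held 59.1 ± 0.742% of the gene's TPM and lacked the motif, while EEF1A1-201, the MANE Select isoform, held 0.0363% and carried a run of 7 pyrimidines. When the start of the MANE Select or Ensembl canonical transcript was read for every gene, 51 of the 100 most abundant genes and 60 of the 79 ribosomal protein genes carried the motif.

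Cytoskeletal, glycolytic and chaperone genes were also abundant. ACTG1, the cytoplasmic gamma actin, had 5563, 5177 and 5421 TPM and ACTB, the beta actin, 2656, 2325 and 2474 TPM. TMSB10, an actin monomer-binding thymosin, had 4826, 5175 and 5133 TPM. The simple epithelial keratins KRT8 and KRT18 had 1850 ± 134 and 1318 ± 89.2 TPM. By contrast VIM, the intermediate filament protein of mesenchymal cells, had 10.7, 9.61 and 10.0 TPM. All 16 glycolysis genes reached 1 TPM in every library, led by GAPDH (2964, 2735 and 3064 TPM), ENO1 (1822 ± 131 TPM) and PKM (1551 ± 96.4 TPM), and SLC2A1, the glucose transporter GLUT1, had 553, 576 and 575 TPM. Hexokinase HK2 was lowest (24.4, 20.4 and 21.9 TPM).

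Among chaperones, the prolyl isomerase PPIA led with 3235, 3449 and 3382 TPM, followed by the cytosolic HSP90 genes HSP90AB1 (2722 ± 149 TPM) and HSP90AA1 (2137 ± 105 TPM). The constitutive HSP70 gene HSPA8 had 2265, 2215 and 2389 TPM. The heat-inducible HSP70 genes lay at the other end, HSPA1B with 0.00690, 1.62 and 1.93 TPM and HSPA1A with 0.124, 0 and 0.0936 TPM. HSPA1A and HSPA1B are near-identical copies, so the division of reads between them is uncertain, and whether transcripts outside the gene annotation hold reads of either was not tested. All 31 proteasome genes of the list reached 1 TPM in every library, between PSMC4 (64.5 ± 2.50 TPM) and PSMA4 (518 ± 28.1 TPM).

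Histone mRNAs divided by type. The 11 replacement histone genes, whose mRNAs are polyadenylated, all reached 1 TPM in every library with a summed level of 5096 ± 44.7 TPM. H3-3B, a gene for H3.3, had 2550, 2558 and 2482 TPM and H2AZ1 1371, 1482 and 1418 TPM. H3-3B exceeded H3-3A, the other H3.3 gene (411, 417 and 437 TPM), 6.00-fold. CENPA, the centromeric H3, was lowest with 14.4, 13.2 and 13.4 TPM. Of 42 replication-dependent histone genes, 11 reached 1 TPM in every library and 11 others had less than 1 estimated count in each. Over all protein-coding genes these shares were 57.8% and 11.03%. The summed level of the 42 genes was 118, 131 and 126 TPM, and H2BC12 alone held 57.6, 61.9 and 58.5 TPM of it. Libraries were made from poly(A) RNA, so histone mRNAs without a poly(A) tail would not be captured, and their levels here are not those of all histone mRNA. Near-identical copies make the assignment within this family uncertain.

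MCM2-7 is the ring-shaped helicase of DNA replication. Its 6 genes were expressed within 3.73-fold of each other. MCM7 had 290, 277 and 300 TPM, MCM4 253, 225 and 250 TPM, MCM2 208, 181 and 207 TPM, MCM5 187, 183 and 201 TPM and MCM3 176, 170 and 186 TPM. MCM6 stood apart with 76.4, 70.4 and 86.0 TPM, below every value of the other 5 genes. Each of the 6 was lowest in DMSO 2. The neighbours MCM2, MCM5 and MCM3 overlapped over the libraries. MCMBP, an MCM-binding protein, had 176, 164 and 164 TPM. All 10 licensing genes reached 1 TPM in every library, among them the loading factors CDC6 (164, 161 and 165 TPM) and CDT1 (105, 99.5 and 109 TPM) and their inhibitor geminin (GMNN; 104, 112 and 106 TPM). The subunits of the origin recognition complex lay between ORC6 (94.9 ± 2.59 TPM) and ORC2 (25.3 ± 2.54 TPM).

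Cohesin is the ring complex that extrudes chromatin loops, and CTCF is the zinc finger protein at which loops commonly end. The kleisin RAD21 had 157, 137 and 127 TPM, above SMC1A (46.3, 38.5 and 38.8 TPM), SMC3 (35.0, 29.8 and 32.1 TPM) and STAG2 (34.9, 29.3 and 29.2 TPM). CTCF had 31.3, 27.1 and 29.7 TPM. The loader NIPBL (9.48, 7.11 and 8.08 TPM) was lower than its partner MAU2 (14.7, 14.4 and 14.3 TPM) and the release factor WAPL (30.4, 29.0 and 29.0 TPM). Sororin (CDCA5), which protects cohesin from WAPL, had 128, 120 and 127 TPM, and the acetyltransferases ESCO2 and ESCO1 had 25.2 ± 1.45 and 12.5 ± 0.764 TPM. PDS5B was the lowest of the 15 genes with 6.61, 6.85 and 6.27 TPM, against 48.8, 45.1 and 44.3 TPM for PDS5A. Of the meiotic counterparts, the kleisin REC8 had 3.32, 3.40 and 3.24 TPM, while SMC1B (0.0875 ± 0.0239 TPM), RAD21L1 (0.116 ± 0.0745 TPM) and STAG3 (0.600 ± 0.0848 TPM) were below 1 TPM, as was the germline CTCF paralog CTCFL (0.216 ± 0.0496 TPM).

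The label of a G1 sort was compared with genes of the cell cycle phases. In the G1 list 22 of 23 genes reached 1 TPM in every library, against 57.8% of all protein-coding genes. Cyclin D1 (CCND1) had 349, 309 and 291 TPM, cyclin D3 (CCND3) 72.5, 70.5 and 79.4 TPM, and cyclin D2 (CCND2) 0.00321, 0.0161 and 0.0170 TPM. The kinase CDK4 had 207 ± 8.32 TPM and CDK6 11.5 ± 1.19 TPM. CDKN1A, which encodes the CDK inhibitor p21, had 175, 191 and 233 TPM, and CDKN1B, which encodes p27, had 12.2 ± 0.536 TPM. RB1 had 24.4, 21.4 and 20.9 TPM, more than the other pocket protein genes RBL2 (5.25 ± 0.515 TPM) and RBL1 (4.04 ± 0.214 TPM).

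Genes of later phases were present too. All 15 S phase genes reached 1 TPM in every library, with the ribonucleotide reductase subunit RRM2 at 476, 455 and 427 TPM and the polymerase clamp PCNA at 434, 464 and 450 TPM. All 20 G2 and mitosis genes did so as well. Cyclin B1 (CCNB1) had 506, 441 and 397 TPM and the mitotic activator CDC20 480, 416 and 436 TPM. The proliferation marker MKI67 had 41.1, 29.5 and 31.0 TPM. No asynchronous or G2 library was analysed here, so these levels were not compared with those of G2 cells.

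The G2 and mitosis genes also differed between libraries. Their summed level was 2451 TPM in DMSO 1, 2119 TPM in DMSO 2 and 2090 TPM in DMSO 3, and 18 of the 20 were highest in DMSO 1. The median CV of the list was 12.4%. The kinesins CENPE (5.27 ± 2.12 TPM) and KIF20A (52.0, 36.3 and 30.3 TPM) were the widest of the 20, and the kinase AURKA had 106, 83.8 and 80.8 TPM. Over all 11765 protein-coding genes at a mean of 1 TPM or more, 44.3% were highest in DMSO 1, 24.8% in DMSO 2 and 30.9% in DMSO 3, and after removal of the trend with transcript length these shares were 32.7%, 33.9% and 33.4%. After that removal 17 of the 20 G2 and mitosis genes were still highest in DMSO 1. The cohesin list behaved otherwise, with 12 of 15 genes highest in DMSO 1 before and 5 after. Deviations also followed the share of G and C bases in the leading isoform. Spearman rho was -0.28 in DMSO 1, -0.08 in DMSO 2 and 0.39 in DMSO 3. That trend was not removed, and its part in these counts was not tested. The share of G2 cells in each sorted sample is not given in the sources used here, and its part in these values was not tested.

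**Figure D2:**
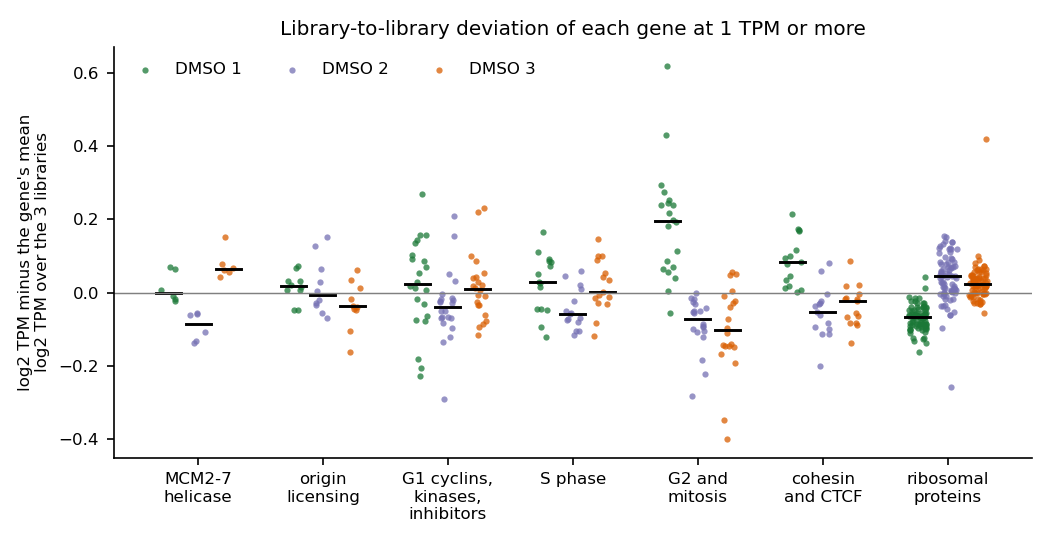
Deviation of each gene at a mean of 1 TPM or more from its own mean over the libraries (vertical axis, log2 TPM) for 7 gene lists, with a point per gene and library and a black line at the median of each library. The G2 and mitosis genes of DMSO 1 lie mostly above 0, and 18 of 20 are highest in that library. The ribosomal protein genes of DMSO 1 lie mostly below 0, and none of 79 is highest in that library. Of all protein-coding genes at a mean of 1 TPM or more, 44.3% are highest in DMSO 1.

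The labelled tissue was compared with markers of colon epithelium. Of 36 genes on this list 14 reached 1 TPM in every library, against 57.8% of all protein-coding genes. General epithelial genes were high, with KRT8 at 1867, 1707 and 1974 TPM, KRT18 at 1341, 1220 and 1394 TPM, KRT19 at 645, 587 and 643 TPM and the adhesion molecule EPCAM at 263, 266 and 257 TPM. The intestinal transcription factor CDX2 had 13.1, 13.4 and 14.5 TPM and SOX9 30.9, 28.4 and 29.0 TPM. The related factor CDX1 had 0 counts in every library, as had the fatty acid-binding protein FABP1 of enterocytes, the goblet cell peptide TFF3 and the stem cell marker OLFM4. Villin (VIL1; 0.278, 0.209 and 0.257 TPM), the goblet cell mucin MUC2 (0.0371, 0 and 0 TPM), the stem cell receptor LGR5 (0.0230, 0 and 0.0155 TPM) and the carcinoembryonic antigen CEACAM5 (0.0253, 0 and 0.0131 TPM) were near 0. The cells therefore carried general epithelial and a few intestinal markers, while most markers of differentiated or stem-like colon cells were at or near 0.

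Markers of other cell types were mostly low. Their counts stand against 57.8% of all protein-coding genes at 1 TPM or more in every library. The neuronal and erythroid lists lay nearer to that share than the other lists did. None of 7 endothelial, 8 striated muscle or 9 germ and pluripotent cell markers reached 1 TPM in every library. Of 10 fibroblast markers the only one was COL1A1 (11.2, 12.98 and 11.8 TPM), while COL1A2, which encodes the partner chain of type I collagen, had 0.0151, 0.0582 and 0.0122 TPM. Of 12 leukocyte markers it was CD68 (11.7, 10.7 and 12.1 TPM), a lysosomal protein, and the pan-leukocyte marker PTPRC had 0.149, 0.185 and 0.167 TPM. Of 8 hepatocyte markers it was SERPINA1 (3.94, 3.88 and 5.14 TPM), while albumin (ALB) had 0, 0 and 0.0541 TPM. Of 8 neuronal markers 4 reached it, led by the GABA-synthesising enzyme GAD1 (9.52, 8.97 and 9.16 TPM), and the neurofilament genes NEFL and NEFM stayed below 0.01 TPM. Of 7 erythroid markers 3 did, namely HBA2 (13.2 ± 1.35 TPM), HBA1 (11.4 ± 1.22 TPM) and HBG2 (7.39 ± 0.199 TPM), while HBB had 0.0872, 0 and 0.0690 TPM. HBA1 and HBA2 are near-identical copies whose reads cannot be divided with certainty.

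**Figure D3:**
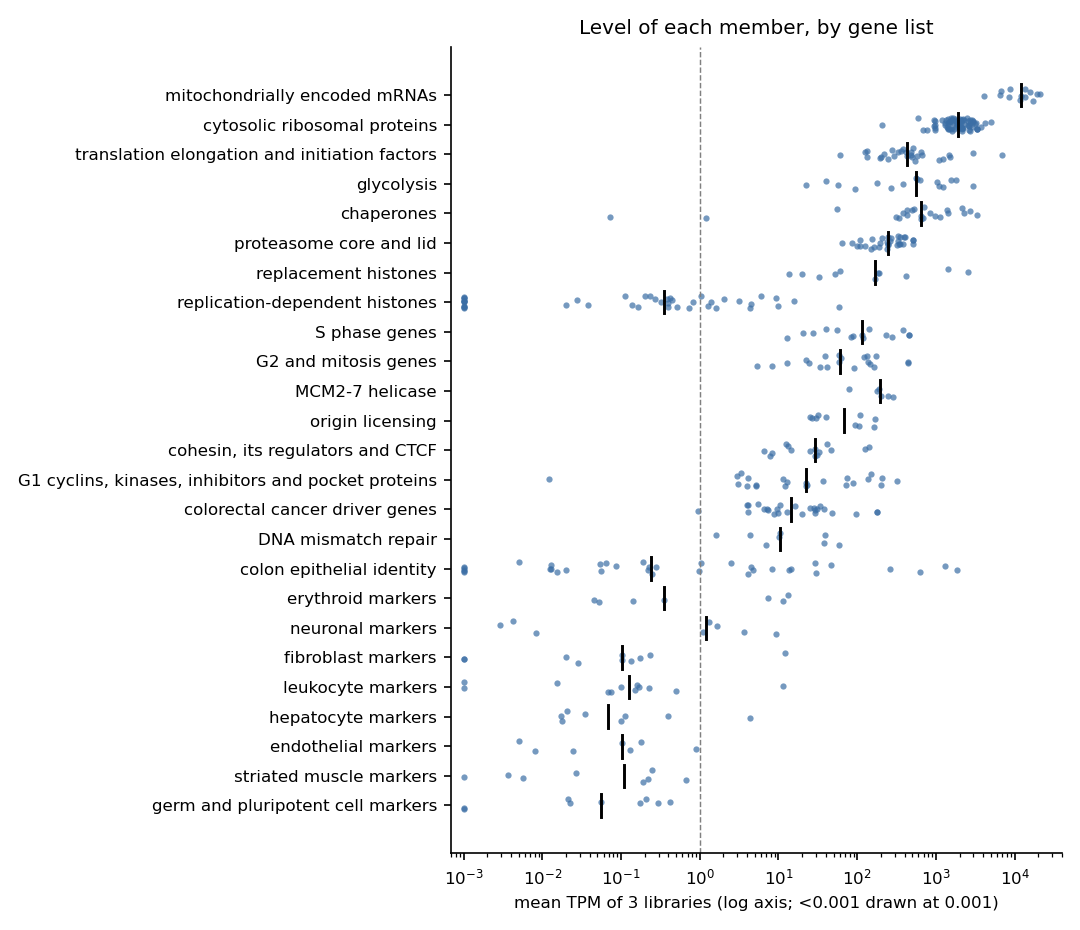
Mean TPM over the 3 DMSO libraries (horizontal axis, log scale, values under 0.001 drawn at 0.001) of every member of 25 gene lists (rows), with a point per gene, a black bar at the list median and a dashed line at 1 TPM. The mitochondrial mRNAs and the ribosomal proteins (median 1896 TPM) lie at the top, and the lists of other cell types lie mostly left of 1 TPM.

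Genes that are recurrently altered in colorectal cancer were nearly all expressed. Of 26 such genes 25 reached 1 TPM in every library, against 57.8% of all protein-coding genes. Their median was 14.4 TPM, against 17.96 TPM over all protein-coding genes at 1 TPM or more in every library. MYC had 195, 177 and 164 TPM and CTNNB1, which encodes beta-catenin, 187, 174 and 171 TPM. AXIN2, a known target of beta-catenin signalling, had 9.72, 9.42 and 9.30 TPM, and the antagonist DKK1 had 399 ± 22.3 TPM. SMAD4 had 35.9, 38.7 and 39.3 TPM. APC (4.53, 4.43 and 3.31 TPM), PIK3CA (4.29, 3.85 and 4.05 TPM) and BRAF (4.24, 3.69 and 3.89 TPM) lay near the lower end and AMER1 (1.05, 0.939 and 0.848 TPM) was lowest. All 8 mismatch repair genes were detected. MSH6 had 42.1, 36.3 and 38.9 TPM, and MSH3 was the lowest with 1.75, 1.19 and 1.82 TPM.

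Within families of related genes the output usually came from few members. Across 50 families with 145 members, the leading member held at least 90% of the family TPM in 22, and in 49 its values did not overlap those of the next member in any library. A mean below 1 TPM was found for 25 members. TMSB10 held 92.8 ± 0.287% of the beta thymosin output, against 355, 398 and 362 TPM for TMSB4X. ACTG1 exceeded ACTB 2.17-fold. The small GTPase gene HRAS (100.7, 89.2 and 98.5 TPM) exceeded NRAS (37.2, 33.2 and 31.4 TPM). P-cadherin (CDH3) had 70.2, 69.7 and 66.9 TPM, 4.75-fold more than E-cadherin (CDH1) with 14.7, 15.2 and 13.6 TPM, while N-cadherin (CDH2) had 0.116 ± 0.0182 TPM. LDHB (1040.2 ± 46.3 TPM) exceeded LDHA (626 ± 29.6 TPM).

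Several families were led by a member with a counterpart near 0. SMC1A held 99.8% of the SMC1 output and PKM all of the pyruvate kinase output, the liver and red cell gene PKLR having 0 counts. The tissue-specific respiratory subunit COX4I2 and the testis ribosomal protein RPL10L also had 0 counts. In the MYC family, MYCN had 0 counts and MYCL 1.02 ± 0.0638 TPM. The exception to separated leaders was the RPL22 pair, in which RPL22L1 (642 ± 58.7 TPM) and RPL22 (600.3 ± 10.6 TPM) overlapped over the libraries. Among beta tubulins TUBB4B led (883 ± 62.7 TPM), and TUBB3, known as a neuronal tubulin, had 287, 265 and 282 TPM.

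A second set of protein-coding genes was silent at this depth. Less than 1 estimated count in every library was found for 2202 genes (11.03% of those listed), and 2078 of them had exactly 0. A further 6225 genes had counts but did not reach 1 TPM in every library. A count of 0 allows up to 3 counts, which is 0.0438, 0.0571 and 0.0471 CPM (counts scaled by the library total, as TPM is but without length) in DMSO 1, 2 and 3. Of 416 olfactory receptors 280 were below 1 count. Of 40 beta-defensins 36 were silent, of 94 keratin-associated proteins 80, of 17 type I interferons 14 and of 407 immunoglobulin and T cell receptor segments 384. No type I interferon, bitter taste receptor, beta-defensin or GAGE, PAGE or XAGE gene reached 1 TPM in every library.

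Other families, and the members of the silent families that were expressed, are set against all protein-coding genes, of which 57.8% reached 1 TPM in every library. Of 26 MAGE A, B and C genes, cancer-testis antigens that are usually restricted to the germ line, 6 reached 1 TPM in every library. MAGEB2 had 167, 167 and 168 TPM and MAGEA3 165, 153 and 159 TPM, while MAGEA4 had 0.0676 ± 0.0762 TPM. MAGEA6 had 2.40 ± 0.333 TPM, and the division of reads between MAGEA3 and MAGEA6 was not tested. MAGEA2 (93.2 ± 7.59 TPM) and MAGEA2B (50.2 ± 10.1 TPM) are near-identical copies and their division is uncertain. Of 39 HOX genes, which specify position along the body axis, 25 reached 1 TPM in every library (64.1%), led by HOXB7 (69.6 ± 6.00 TPM) and HOXA9 (62.1 ± 2.20 TPM). Of 56 cytochrome P450 genes 10 did (17.9%), led by the vitamin D hydroxylase CYP24A1 (91.0, 86.8 and 85.9 TPM). Of 24 claudins 5 did, led by CLDN7 (61.1 ± 2.54 TPM). Of 55 keratins 9 did, and KRT8, KRT18 and KRT19 were followed at a distance by KRT15 (33.3 TPM). Of 416 olfactory receptors 5 did, led by OR51B5 (57.1, 52.6 and 44.4 TPM).

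Non-coding genes were little represented, because only 838 of 18866 lncRNA genes of the annotation had a transcript in the tables. These held 0.142% of TPM and 179 reached 1 TPM in every library. RPL23AP7 (51.8, 46.2 and 50.7 TPM) and STAG3L5P (42.0, 51.1 and 44.8 TPM), both annotated as lncRNA but named as pseudogenes, were highest. Of 15186 pseudogenes 377 reached 1 TPM in every library, and pseudogenes held 1.52% of TPM. MTATP6P1, a nuclear copy of mitochondrial sequence on chromosome 1, had 2611, 2564 and 2363 TPM, and RPL23AP42 and RPS28P7 had 1190.2 ± 36.7 and 1172 ± 61.0 TPM. Reads of such copies are shared with their abundant parent genes, and the levels are uncertain for that reason.

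Most multi-isoform genes had a leading transcript that was the same in every library. Of 7279 genes at a mean of 10 TPM or more with at least 2 listed transcripts (median 9), 6635 (91.2%) had the same leading isoform in all 3 libraries, and in 4169 (57.3%) that isoform held over 50% of the gene's TPM in each. The median share of the leading isoform was 58.0%, and in 879 genes it exceeded 90% in every library. In the 644 genes whose leading isoform differed between libraries the median share was 29.2%. Of 7167 genes with a MANE Select isoform, 4643 (64.8%) had it as the leading isoform. Leading isoforms without a coding sequence numbered 550 (7.56%), among them 264 of the retained-intron type, and a further 256 led with a transcript annotated for nonsense-mediated decay.

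Genes with known functional isoforms were examined singly. RAC1 had 54.9 ± 1.43% of its TPM in the 192-residue form and 22.8 ± 1.19% in the 211-residue form known as RAC1b, which contains an additional exon. In estimated counts these shares were 81.0 ± 0.903% and 11.6 ± 0.743%. The annotated transcripts are 2309 and 907 bases long, so the TPM shares rest strongly on the length correction. CDKN2A encodes p16INK4a and, in another reading frame, p14ARF. Isoforms of 132 residues, the length of p14ARF, held 67.7 ± 2.28% of its TPM and the 156-residue p16INK4a isoform 12.3 ± 1.44%. LMNA output was divided into 53.01 ± 0.556% for 664 residues, the length of prelamin A, and 22.8 ± 1.19% for 572 residues, the length of lamin C. BCL2L1 isoforms of 233 residues, the anti-apoptotic BCL-XL form, held 90.8 ± 0.396%. CD44 was divided among many isoforms, with 23.98 ± 1.07% in the 361-residue standard form and 16.2 ± 1.098% in a 699-residue variant form.

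The share of transcripts annotated for nonsense-mediated decay differed from gene to gene. TRA2B-205, of that type, held 40.1 ± 0.605% of the TRA2B output. SRSF3-204, also of that type, held 22.4 ± 2.22% of SRSF3, and among tropomyosins TPM1-214 held 42.2 ± 0.621% of TPM1 and TPM3-219 held 33.2 ± 0.368% of TPM3. Other splicing regulators led with coding isoforms, SRSF2-202 at 71.2 ± 1.84%, HNRNPDL-206 at 74.8 ± 1.26% and PTBP1-203 at 55.2 ± 1.47%. Abundant genes differed as well, with GAPDH-201 at 96.5 ± 0.138%, ACTB-217 at 97.2 ± 0.295% and HSPA8-224 at 78.8 ± 3.602%, against 59.1 ± 0.742% for EEF1A1-219. MYC was divided between MYC-205 (51.5 ± 1.395%), which encodes 453 residues, and MYC-202 (43.2 ± 0.251%), which encodes 439. RAD21-201 held 93.4 ± 0.760% of RAD21 and CTCF-201 held 76.1%, 82.6% and 72.8% of CTCF in DMSO 1, 2 and 3. TCF7L2 was unstable, with 14.4 ± 10.6% assigned to its 408-residue isoform.

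**Figure D4:**
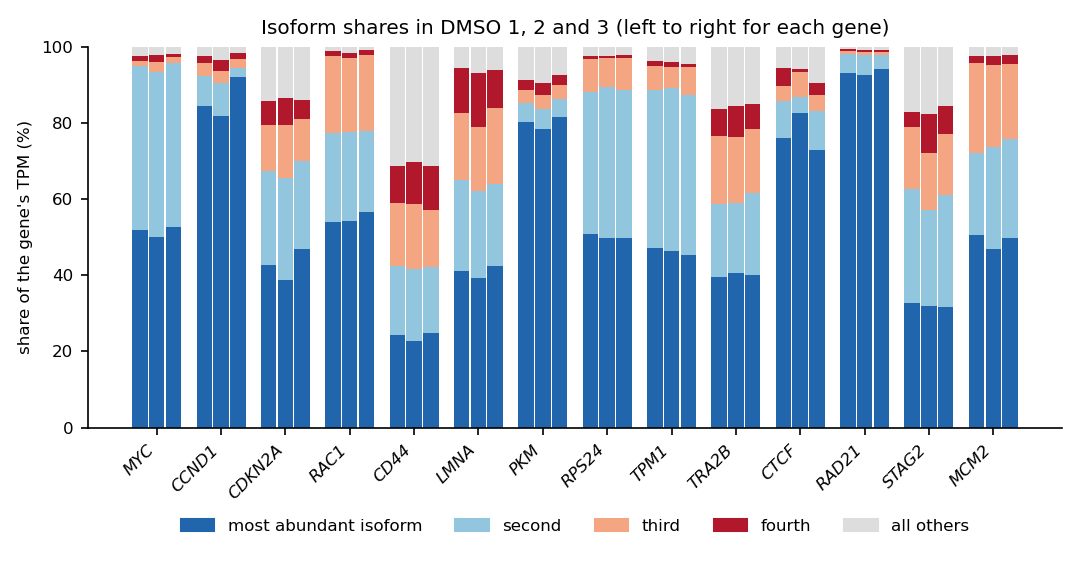
Share of each gene's TPM (vertical axis, percent, stacked from 0) held by its 4 most abundant isoforms and by all others, with a bar for DMSO 1, 2 and 3 from left to right for each of 14 genes. The leading isoform of RAD21 (93.4%) fills most of the bar, and CD44 (23.98%) and STAG2 (32.1%) are divided among many. In estimated counts these leading isoforms held 98.5% of RAD21, 44.3% of CD44 and 6.43% of STAG2. That of STAG2, STAG2-218, is 864 bases long and has no defined coding sequence.

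The tagged gene itself showed an unusual division. MCM2-206, annotated for nonsense-mediated decay, held 50.7%, 46.9% and 49.8% of MCM2 TPM in DMSO 1, 2 and 3, and the MANE Select isoform MCM2-201, which encodes all 904 residues, held 21.5%, 27.0% and 25.9%. In estimated counts MCM2-206 exceeded MCM2-201 1.93, 1.43 and 1.58-fold. The leading isoforms of MCM3 (76.6 ± 2.99%), MCM4 (52.9 ± 0.884%), MCM6 (91.1 ± 2.37%) and MCM7 (81.7 ± 3.55%) were their MANE Select isoforms, while that of MCM5 was not (MCM5-202, 47.2 ± 2.81%). On chromosome 3 (hg38, plus strand) MCM2-206 runs from 127598410 to 127621829 and MCM2-201 from 127598411 to 127622436, so the first ends 56 bases after the stop codon of MCM2-201 and the second 663 bases after it. The degron cassette is inserted at the end of this reading frame and is not part of the annotation. Its part in the division was not tested.

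Libraries agreed closely gene by gene. Among 7606 genes at a mean of 10 TPM or more, the median absolute difference on the log2 scale was 0.10 between DMSO 1 and DMSO 2, 0.09 between DMSO 1 and DMSO 3 and 0.08 between DMSO 2 and DMSO 3. The highest library was less than 1.2-fold above the lowest for 6660 genes (87.6%), and 30 genes (0.394%) differed at least 1.5-fold. The median CV was 5.31%. It was 12.4% for genes between 1 and 3 TPM, 8.30% between 3 and 10 TPM, 6.12% between 10 and 30 TPM, 4.93% between 30 and 100 TPM, 4.41% between 100 and 300 TPM, 4.38% between 300 and 1000 TPM and 4.90% above 1000 TPM. Counting error alone would give 7.90% in the lowest of these classes and 0.414% in the highest. The spread of abundant genes therefore exceeded counting error many times over.

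**Figure D5:**
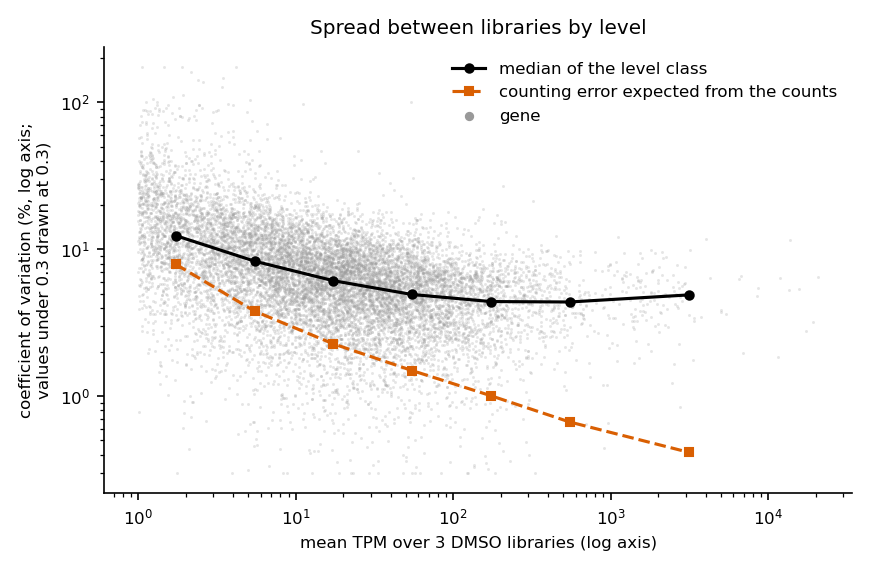
Coefficient of variation over the 3 DMSO libraries (vertical axis, percent, log scale) against mean TPM (horizontal axis, log scale), with a grey point per gene at 1 TPM or more, black circles for the median of each level class and orange squares for the median counting error expected from the counts. The median is 12.4% in the lowest class, lowest at 4.38% between 300 and 1000 TPM and 4.90% in the highest class, where the counting error is 0.414%.

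The widest protein-coding genes at 10 TPM or more were few. CDK7, the kinase of the CDK-activating complex and of TFIIH, had 25.2, 13.1 and 36.2 TPM, a 2.75-fold range. The peptide transporter TAP2 had 6.74, 15.5 and 10.2 TPM. The endoplasmic reticulum chaperone calnexin (CANX) had 55.5, 72.1 and 38.5 TPM. VPS52, LSM14A, KIF20A, NTAN1 and SNRNP25 ranged between 1.65 and 1.88-fold. Whether transcripts outside the gene annotation hold reads of these widest genes was not tested. At the other end, and chosen after its values were seen, TIMM17A, a subunit of the mitochondrial import channel, had 183.5, 184.1 and 183.9 TPM. DMSO 1 deviated from the mean of the other libraries with transcript length (Spearman rho 0.44 over 7606 genes, a description over genes), with a median log2 difference of -0.04 among the shortest transcripts (median effective length 761 bases) and 0.12 among the longest (4060 bases).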

How the data were processed

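Poly(A)-selected, strand-marking libraries of 3 DMSO samples were sequenced in paired ends. Reads were assigned by the authors with kallisto to human transcripts of hg38. For the transcript release and the strand setting no value is given in the sources used here, so overlapping antisense genes cannot be told apart. The deposited estimated counts were neither normalised nor pooled, and the deposited tables gave no TPM. Tables listed 199240 transcripts with their length and effective length (corrected for fragment size). Without version, 178869 identifiers (89.8%) matched GENCODE 44. The 20371 others held between 3.64% and 3.71% of TPM. They stayed in the TPM scale and out of gene sums.

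TPM was computed from estimated counts and effective lengths and summed per gene (Python 3.11.15, pandas 2.3.3). No filter and no pseudocount were used. Isoforms and spread were described at a mean of 10 TPM or more. The length trend was removed as the median log2 deviation in 50 length classes. The trend with G and C bases was not removed. Steps were tested on simulated data. Intervals and floors cover counting error only. TMM factors came from edgeR 4.0.16 (R 4.3.3) on rounded estimated counts.

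The highest and lowest members of each list were named. Named genes were members of 26 gene lists, 50 paralog families and 40 isoform genes, the 30 most abundant genes, the 10 widest coding genes, the 5 most abundant lncRNAs and pseudogenes, and the 5 most abundant unmatched transcripts. Genes and lists were chosen with earlier results of these data known. Alternatives were other length divisors, scales, thresholds, starts and leaving out each library. Results for some genes are not reported here.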

Additional observations from a re-analysis of the deposited data

Results flagged for a closer look

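Signal in listed transcripts that the gene annotation does not contain lay outside the gene sums. The 20371 unmatched transcripts held 3.69% of TPM on average, and 2004 of them reached 1 TPM in every library. The highest, ENST00000600213.3, is 1049 bases long and had 7339, 7972 and 7428 TPM in DMSO 1, 2 and 3, a mean of 7579.5 TPM, which is above every nuclear gene of the annotation. The next were ENST00000536684.3 (mean 1404 TPM), ENST00000628770.2 (939.6 TPM), ENST00000630979.3 (914 TPM) and ENST00000540040.3 (884 TPM). They are given by identifier only, and which genes they belong to was not tested.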

How the results depend on the processing

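Of 72 alternative values over 9 results, 60 stayed within the limits set (1.5 times a count, or 1 SD between libraries of a share) and 12 moved beyond them. With mitochondrial mRNAs left out before scaling, 422 genes held 50% of the output and the ribosomal protein share was 18.7%. With annotated in place of effective length, the ribosomal protein share was 14.05% and the mitochondrial share 13.7%. Fewer than 5 estimated counts in every library were found for 4100 protein-coding genes. At a mean of 50 TPM or more, 1787 of 2766 genes had an isoform above 50%, 2628 had the same leading isoform, and 5 genes differed at least 1.5-fold. At a mean of 1 TPM or more, 630 of 12461 differed 1.5-fold, so that count depends on the level chosen. Fewer or more genes considered change these counts by construction. Without DMSO replicate 1, 2 or 3 between 12 and 16 genes differed 1.5-fold, against 30 with all 3, since fewer libraries give a smaller range. Leaving out a library gave 12201 to 12232 genes at 1 TPM, 225 to 236 genes for 50% of output, 2407 to 2490 silent genes, 4219 to 4308 with an isoform above 50%, 6776 to 6869 with the same leading isoform, ribosomal shares of 15.5% to 16.1%, mitochondrial shares of 15.6% to 16.3% and 37 to 38 pyrimidine starts. With TMM-scaled CPM 27 genes differed 1.5-fold, and after removal of the length trend 31. No paired analysis was possible because a single group is described.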

Other observations

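Globin and olfactory receptor genes of one stretch of chromosome 11 had counts. HBE1, the embryonic beta-like globin, had 54.2, 56.4 and 54.5 TPM, more than HBG2 (7.21, 7.37 and 7.60 TPM), while HBG1 had 0.142 ± 0.125 TPM and HBB 0.0521 ± 0.0460 TPM. The olfactory receptor genes next to them had counts as well, with OR51B5 at 57.1, 52.6 and 44.4 TPM, OR51B4 at 10.5, 7.55 and 7.22 TPM and OR51B2 at 1.44 ± 0.351 TPM. All are annotated on the minus strand (hg38), HBE1 from 5268345 to 5505652 and OR51B5 from 5303444 to 5505652. The isoforms that held most of the output start close together. Isoforms with an annotated start between 5505604 and 5505652 held 96.6 ± 0.969% of OR51B5 TPM, 85.8 ± 5.07% of HBE1 TPM and 77.1 ± 6.06% of HBG2 TPM. Isoforms with a common start share sequence, so the division of reads among these genes is uncertain. These genes were chosen after their values were seen.

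HBE1 and MAGEB2, both chosen after their values were seen, were steady between libraries. MAGEB2 ranged only 1.01-fold (166.6, 167.4 and 167.7 TPM), and HBE1 had a SD of 1.17 TPM. MUC1 was less steady, with 2.98, 2.67 and 6.48 TPM. The metallothionein genes MT2A and MT1E, which bind zinc and copper, had 1338 ± 48.8 and 421 ± 28.6 TPM, and the ferritin chains FTL and FTH1 1909 ± 179 and 1703 ± 72.3 TPM. The calcium-binding protein S100A6 (2313 ± 68.5 TPM) and galectin-1 (LGALS1, 1805 ± 91.5 TPM) were as abundant as many ribosomal proteins.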
